A study of Rattus norvegicus with 6 samples.

Results

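Insulin-like growth factor (IGF) ligands, receptors and binding proteins were followed in total lung of Sprague-Dawley rats. The genes are the ligands Igf1 and Igf2, the receptors Igf1r and Igf2r, and the binding proteins Igfbp2, Igfbp3, Igfbp4, Igfbp5, Igfbp6 and Igfbp7. They were taken by symbol, and all 10 were found among the 19828 entries of the deposited table. There were 2 groups of 3 libraries, one of wild-type (WT) rats and one of Ahr-knockout (Ahr-KO) rats. Ahr encodes the aryl hydrocarbon receptor, a transcription factor activated by small ligands. Both groups carried the Sugen-Hypoxia (SuHx) label and day 56. Sugen blocks VEGF receptors, and rats given it and kept in low oxygen serve as a model of pulmonary arterial hypertension. No untreated lung was analysed here, so every difference below is between genotypes under that treatment. Which stretch of Ahr was edited, and how old the rats were, could not be learned from the labels used here.

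IGF1 and IGF2 are secreted growth factors that act through the IGF1 receptor, a tyrosine kinase feeding the PI3K-AKT and MAPK pathways. IGF2R, also known as the cation-independent mannose 6-phosphate receptor, takes up IGF2 for lysosomal breakdown and has no kinase. The binding proteins hold the ligands outside the cell, which can prolong their life or keep them from the receptor, and proteases that cut the binding proteins release them. In lung, Igf1 is known as a product of mesenchymal cells and macrophages, and the pathway is known for driving growth of fibroblasts and vascular smooth muscle.

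Bulk RNA-seq gave 1 normalised read value per gene and library, behind which stood an estimated 12.9 to 21.9 M reads (M, mega) in WT and 14.2 to 23.6 M in Ahr-KO. The libraries numbered 2 were the shallowest of each group. The AHR target Cyp1a1, a cytochrome P450, was at 23512 to 37694 in WT and at 0.83 to 10.5 in Ahr-KO. Ahr itself was at 2860 to 3395 in WT and at 2399 to 3923 in Ahr-KO, and a value over the whole gene does not check an edit. Defining lung markers (Sftpc, Sftpb, Ager, Scgb1a1, Nkx2-1 and Pecam1) were present in all libraries, with summed values of 569644 to 593077 in WT and 684563 to 767876 in Ahr-KO. Values of different genes are not compared with each other below, because they are not scaled for transcript length. Whether each sample was a different animal is not stated in the labels, and the p-values therefore measure only the spread between these libraries, which may be technical.

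The genes that fell in the Ahr-KO lungs were the ligand gene Igf1 and the binding protein genes Igfbp4 and Igfbp5. Of the 10 genes, 3 were lower, 0 were higher and 7 did not pass the test (limma-trend, Benjamini-Hochberg adjusted p under 0.05 over all 15386 tested genes). Over all tested genes 10.8% were called, 4.5% as higher (692) and 6.26% as lower (963). On values scaled to the same total in every library, the split was 449 higher and 1314 lower, and the same number of IGF genes, 3, was called, all lower. The WT and Ahr-KO values did not overlap for 5 of the 10 genes, against 34.3% of all tested genes. The median log2 difference of the 10 genes was 0.13, beside 0.01 over all tested genes. Of the 7 genes that did not pass, 3 had an unadjusted p under 0.05: Igf1r, Igfbp2 and Igfbp7. In whole lung, fewer cells of a type and less RNA per cell cannot be told apart.

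**Figure D1:**
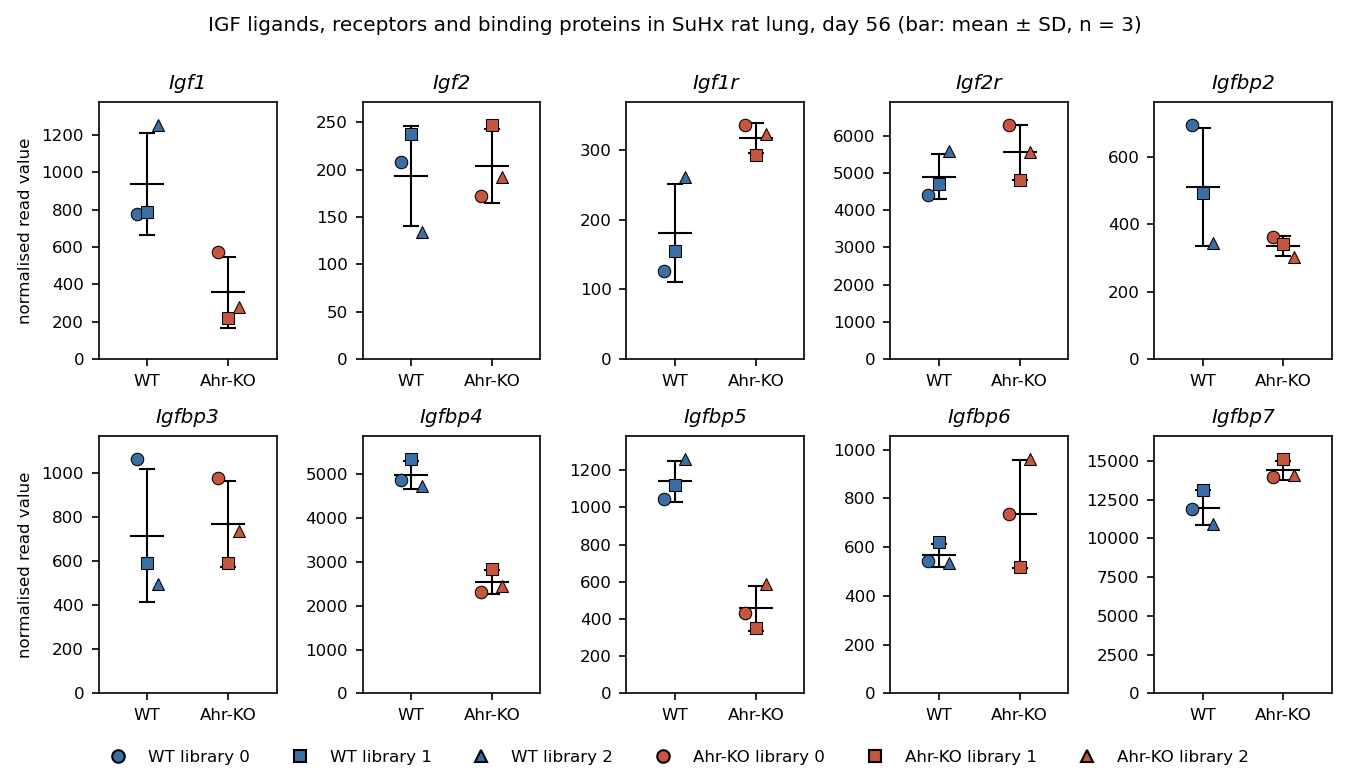
Normalised read value (vertical axis, from 0) of each IGF gene in the 3 WT and 3 Ahr-KO libraries, 1 panel per gene, with symbols for the library numbers and bars for mean ± SD. Igf1, Igfbp4 and Igfbp5 sit lower in all 3 Ahr-KO libraries than in any WT library, Igf1r and Igfbp7 sit higher, and the other 5 genes overlap.

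The start regions of the 3 genes that fell are shown with that of Igf1r, whose groups were separated in the opposite direction, because AHR and its partner ARNT bind DNA at a core GCGTG. The windows run from 250 bases before to 50 bases after a start site and come from RefSeq on GRCr8, while the deposited values used rn6. All 10 genes matched, with 11 windows, since Igf2 had a pair of starts. Capitals mark GCGTG on either strand.
Igf1 (chr7:24172282-24172581, plus strand): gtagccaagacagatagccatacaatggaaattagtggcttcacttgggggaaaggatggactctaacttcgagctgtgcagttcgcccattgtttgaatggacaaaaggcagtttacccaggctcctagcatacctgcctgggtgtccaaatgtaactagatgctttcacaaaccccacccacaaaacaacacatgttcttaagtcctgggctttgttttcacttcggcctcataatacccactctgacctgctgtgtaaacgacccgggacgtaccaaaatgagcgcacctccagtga
Igfbp4 (chr10:84491221-84491520, plus strand): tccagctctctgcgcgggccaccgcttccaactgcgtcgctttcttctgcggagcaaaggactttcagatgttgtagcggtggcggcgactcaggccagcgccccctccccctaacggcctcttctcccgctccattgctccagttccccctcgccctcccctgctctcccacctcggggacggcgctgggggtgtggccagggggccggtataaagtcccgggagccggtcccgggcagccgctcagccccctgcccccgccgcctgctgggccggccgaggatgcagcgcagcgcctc
Igfbp5 (chr9:81914138-81914437, minus strand): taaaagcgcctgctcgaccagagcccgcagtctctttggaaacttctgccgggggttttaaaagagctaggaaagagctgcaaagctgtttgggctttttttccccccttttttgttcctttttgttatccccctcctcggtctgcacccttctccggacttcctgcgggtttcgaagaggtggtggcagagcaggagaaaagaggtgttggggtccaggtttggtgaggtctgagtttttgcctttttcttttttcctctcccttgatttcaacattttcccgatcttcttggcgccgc
Igf1r (chr1:130959747-130960046, plus strand): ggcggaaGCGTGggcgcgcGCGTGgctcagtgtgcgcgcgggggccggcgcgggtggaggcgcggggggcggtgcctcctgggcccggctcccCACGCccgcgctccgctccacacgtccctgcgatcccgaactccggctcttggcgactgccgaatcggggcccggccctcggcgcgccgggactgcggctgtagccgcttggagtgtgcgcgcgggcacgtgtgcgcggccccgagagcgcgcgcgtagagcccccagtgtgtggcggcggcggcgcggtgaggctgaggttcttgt
The windows of Igf1, Igfbp4 and Igfbp5 held 0 copies of GCGTG, and that of Igf1r held 3. Among all 33469 windows of this length in the table, 29.7% held it on at least 1 strand. Of the 10 IGF genes, 5 held it (Igf2, Igf1r, Igfbp2, Igfbp3 and Igfbp7). The longer form TNGCGTG, which contains the core, was in 0 of the 10 and in 4.89% of all windows. ACGTG, the core of hypoxia response elements, was in 5 of the 10 (Igf2, Igf1r, Igf2r, Igfbp2 and Igfbp7) and in 19.2% of all windows. The FOXO core TGTTTAC was in Igfbp6 alone of the 10, against 3.78% of all windows, and the STAT form TTCNNNGAA was in 0 of the 10, against 8.87%. All motifs were searched on both strands. The windows differed in GC content, with 48.3% for Igf1, 50.7% for Igfbp5, 71% for Igfbp4 and 78% for Igf1r. A match describes letters and does not show a bound site, and windows of other start sites or distal elements were not searched.

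Of the ligands, Igf1 was lower in the Ahr-KO lungs while the values of Igf2 overlapped. In WT libraries 0, 1 and 2, Igf1 was measured at 779, 786 and 1253, and in Ahr-KO libraries 0, 1 and 2 it was measured at 575, 221 and 279.7. All 3 Ahr-KO values lay below the lowest WT value, but Ahr-KO library 0 stood well above the other Ahr-KO libraries, and WT library 2 well above the other WT libraries. The mean fell from 939 ± 272 to 359 ± 190 (SD, n = 3), a log2 difference of -1.47 ± 0.35 (SE) on the log2(value + 1) scale (limma-trend adjusted p = 0.036), which is 2.78-fold on the linear scale. The 95% interval ran from -2.28 to -0.67. The call rested on most of the libraries: it was lost when any 1 library other than Ahr-KO library 0 was left out (highest adjusted p = 0.14). It was also lost in the fits without the mean-variance trend (adjusted p = 0.089) and without both libraries numbered 2 (adjusted p = 0.19), and held without Ahr-KO library 0 (adjusted p = 0.0099).

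Igf2, the ligand expressed from the paternal allele, stood at 208, 237 and 134 in WT and at 172, 247 and 192 in Ahr-KO. The groups overlapped, and the lowest value was that of WT library 2. The log2 difference was 0.10 ± 0.24 (limma-trend adjusted p = 0.82). The 95% interval of -0.46 to 0.66 includes no change as well as changes of up to about that size in either direction. The sign of the difference turned in 4 of 16 alternative fits.

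Neither receptor passed the test. Igf1r, the kinase receptor for both ligands, stood at 127, 155 and 260 in WT and at 335, 293 and 322 in Ahr-KO. Every Ahr-KO value lay above every WT value, and WT library 2 was again the WT library apart from the rest. The log2 difference was 0.87 ± 0.25, with a 95% interval of 0.29 to 1.45 (adjusted p = 0.066). Without WT library 2 it was 1.17 and passed (adjusted p = 0.0080), and without both libraries numbered 2 it was 1.15 and passed (adjusted p = 0.043). It did not pass without any 1 of the other 5 libraries, with values from 0.65 (WT library 0 left out, adjusted p = 0.15) to 0.93 and a highest adjusted p of 0.19.

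Igf2r, the clearance receptor, stood at 4412, 4702 and 5580.1 in WT and at 6288, 4815 and 5552 in Ahr-KO. The groups overlapped, with a log2 difference of 0.18 ± 0.13 and a 95% interval of -0.12 to 0.48 (adjusted p = 0.41). No label or note used here gives the counting strand, so any antisense reads at this imprinted locus or at Igf2 cannot be told apart from the gene's own.

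Among the 6 binding protein genes, 2 were lower and 4 did not pass. Igfbp4, a binding protein known mainly for restraining IGF action, had 4856, 5337 and 4738 in WT and 2312, 2838 and 2455 in Ahr-KO. The groups lay far apart and the spread within each was small. Its mean fell from 4977 ± 317 to 2535 ± 272 (SD, n = 3), a log2 difference of -0.98 ± 0.10 (adjusted p = 0.0036, 1.97-fold). Igfbp5, which binds matrix as well as IGFs and is known from fibroblasts and smooth muscle, had 1043, 1121 and 1259 in WT and 431, 352 and 588 in Ahr-KO. Here too every Ahr-KO library was below every WT library. The mean fell from 1141 ± 110 to 457 ± 120.1 (SD, n = 3), a log2 difference of -1.35 ± 0.18 (adjusted p = 0.0074, 2.54-fold). Both calls held in all 16 alternative fits, with the highest adjusted p at 0.034 for Igfbp4 and 0.030 for Igfbp5.

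Igfbp2, which binds both ligands, stood at 694, 492 and 344 in WT and at 362, 342 and 303 in Ahr-KO. WT library 2 lay within the Ahr-KO range while the other WT libraries lay above it. The log2 difference was -0.55 ± 0.24 (adjusted p = 0.18), and without WT library 2 it was -0.80 and passed (adjusted p = 0.029). Leaving out WT library 0 moved it the other way, to -0.30 (adjusted p = 0.38). Igfbp2 and Igfbp5 are adjacent protein-coding genes in the GRCr8 annotation, as are Igfbp3 and Igfbp1.

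Igfbp3, the main carrier of IGFs in blood, varied more within groups than between them. It stood at 1063, 589.7 and 497 in WT and at 979, 593 and 737 in Ahr-KO. In both groups library 0 was the highest. The log2 difference was 0.15 ± 0.29 (adjusted p = 0.78, 95% interval -0.52 to 0.83), and its sign turned in 3 of 16 alternative fits. Its neighbour Igfbp1, best known from liver, had 0 in each WT library against 2.42, 0.83 and 0 in Ahr-KO, and was below the filter.

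Igfbp6, which prefers IGF2, stood at 545, 622 and 534 in WT and at 735, 517 and 960.4 in Ahr-KO. Ahr-KO library 1 lay below all WT libraries and the other Ahr-KO libraries above them. The log2 difference was 0.34 ± 0.21 (adjusted p = 0.34). Igfbp7, a low-affinity IGF binder abundant in vessels, stood at 11899, 13151 and 10922 in WT and at 13979, 15110 and 14101 in Ahr-KO. The groups did not overlap, but the difference was small, at 0.27 ± 0.10 on the log2 scale, and did not pass (95% interval 0.03 to 0.50, adjusted p = 0.14).

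**Figure D2:**
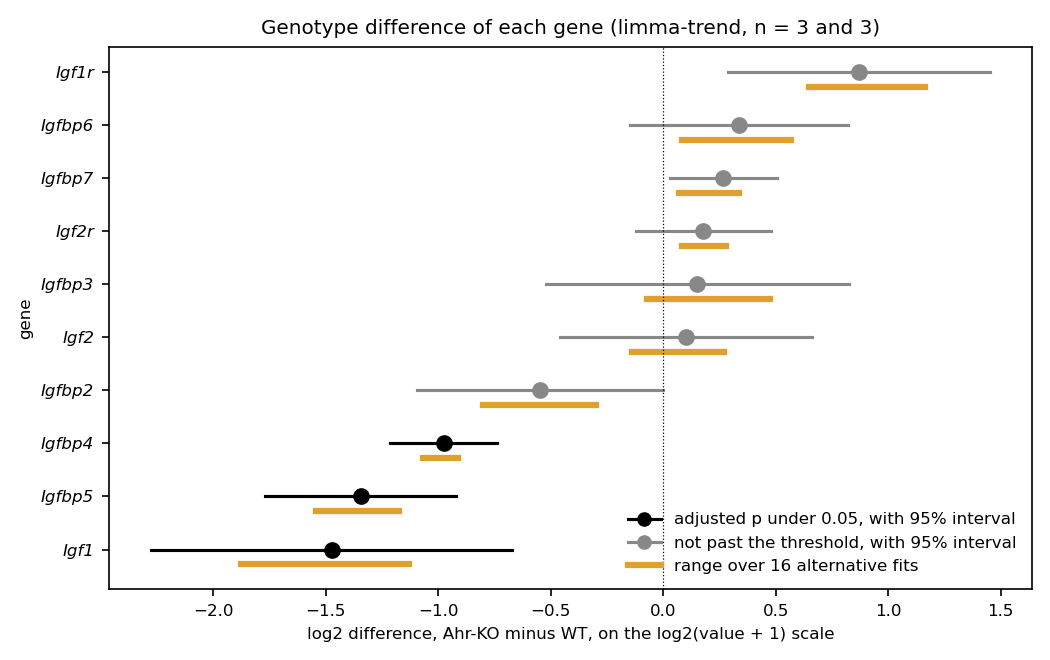
Log2 difference of each IGF gene, Ahr-KO minus WT (horizontal axis, log2(value + 1) scale), with points and 95% intervals from limma-trend on 3 and 3 libraries, black where the adjusted p was under 0.05, and orange bars for the range over 16 alternative fits. The intervals of Igf1, Igfbp5 and Igfbp4 lie below 0. That of Igfbp2 lies just below 0 (upper end -0.0017) and those of Igf1r and Igfbp7 lie above 0, without passing the adjusted threshold.

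Ratios of a pair of genes within a library do not depend on how libraries were scaled, and they are given as values without a test. The log2 ratio of Igf1 to Igf1r was 2.62, 2.34 and 2.27 in WT and 0.78, -0.41 and -0.20 in Ahr-KO. It had the widest gap between group means of the 8 planned ratios, at -2.35, and the groups did not overlap. The log2 ratio of Igf1 to Igfbp6 was 0.52, 0.34 and 1.23 in WT and -0.35, -1.23 and -1.78 in Ahr-KO. Its ratios to Igfbp3 and Igfbp7 were likewise lower in every Ahr-KO library, with differences between group means of -1.63 and -1.74. Against Igfbp4 and Igfbp5, which fell themselves, the ratios of Igf1 overlapped between genotypes, with differences of -0.50 and -0.13. The ratio of Igf1 to Igfbp2 overlapped as well (difference -0.93), as did that of Igf2 to Igf2r (difference -0.08).

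**Figure D3:**
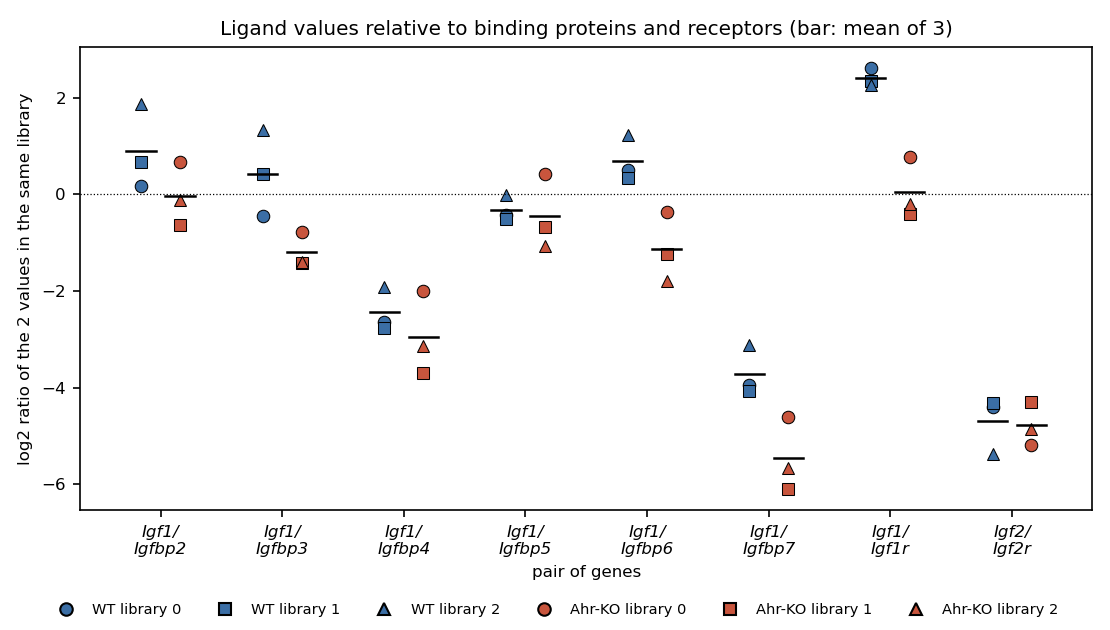
Log2 ratio of a ligand's value to that of a binding protein or receptor in the same library (vertical axis), for 8 pairs of genes, with blue WT and red Ahr-KO symbols for single libraries and bars for the mean of 3. The ratio of Igf1 to Igf1r is between 2.27 and 2.62 in WT and between -0.41 and 0.78 in Ahr-KO, while Igf1 against Igfbp4 or Igfbp5 overlaps.

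The other genes of the pathway were read from lists, each counted against the 10.8% called over all tested genes. In the list of proteases that cut binding proteins and of inhibitors, 3 of 9 tested genes were lower and 0 higher (median log2 -0.41). Of these 3, Adam12 encodes a metalloprotease that cuts IGFBP3 and IGFBP5, and it went from 269, 370 and 218 in WT to 87, 87.6 and 102 in Ahr-KO (log2 -1.59 ± 0.22, adjusted p = 0.0071). The others, Stc1 and Stc2, encode stanniocalcins, which block the pappalysins that cut IGFBP4. Stc1 stood at 356, 488 and 604 in WT and at 226, 153 and 153 in Ahr-KO (log2 -1.43 ± 0.23, adjusted p = 0.012). Leaving out Ahr-KO library 2 ended the Stc1 call (adjusted p = 0.062), as did leaving out both libraries numbered 2 (adjusted p = 0.072). Stc2 stood at 98, 56.7 and 64.3 in WT and at 31.4, 33.9 and 20.5 in Ahr-KO (log2 -1.31 ± 0.31, adjusted p = 0.035). That call was lost in 9 of 16 alternative fits, among them those without WT library 0, WT library 1 or any 1 Ahr-KO library (highest adjusted p = 0.12).

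Pappa2, a pappalysin, did not pass (261 ± 32.8 against 332 ± 40.2, SD, n = 3, adjusted p = 0.19), and Pappa is not analysed here. Mmp7 and Klk1 were below the filter.

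Of 29 tested genes of insulin and IGF receptor signalling, 1 was higher, 0 were lower and 28 did not pass (median log2 0.04). The one that rose was Foxo4, a forkhead factor that AKT keeps out of the nucleus, at 1244, 1251 and 1077 in WT and at 1920, 1899 and 1780.2 in Ahr-KO. Its log2 difference of 0.65 ± 0.09 (adjusted p = 0.0086) held in all 16 alternative fits. Among the 28 others, values did not overlap between the groups for 8 genes, against 34.3% over all tested genes. Irs2, the receptor adaptor with the lowest p of these, had a log2 difference of 0.42 ± 0.12 (adjusted p = 0.056). Tsc1, a brake on mTOR, had 0.78 ± 0.23 (adjusted p = 0.072), a wider difference than that of Foxo4. Others near the threshold went down: Arrb2 (log2 -0.46, adjusted p = 0.064), Shc1 (-0.30, adjusted p = 0.067) and Akt1 (-0.29, adjusted p = 0.070). Of the 29 genes, 5 had every Ahr-KO value above every WT value, Foxo4 among them, and 4 the reverse. The insulin receptor gene Insr overlapped between groups (480.2 ± 170 against 603 ± 61.4, SD, n = 3, adjusted p = 0.32), and like Igf1r it was highest among the WT libraries in library 2. In the further insulin and IGF family, 0 of 4 tested genes passed, the lowest p being that of Insrr (adjusted p = 0.16).

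Of 9 tested genes of the growth hormone axis, which drives Igf1 in liver, 0 passed (median log2 -0.05). The growth hormone receptor gene Ghr stood at 781 ± 129 in WT and 749 ± 175 in Ahr-KO (SD, n = 3, adjusted p = 0.84). The lowest p in that list was that of Ghrhr (13.1 ± 2.34 against 24.5 ± 1.12, SD, n = 3, adjusted p = 0.092). In the list on Igf2 regulation, imprinted growth genes and IGF2 mRNA-binding proteins, 1 of 10 tested genes was higher and 0 lower. That was the imprinted gene Dlk1, at 153, 159 and 622 in WT and at 1213, 932 and 730 in Ahr-KO. Its adjusted p was 0.049, and the call was lost in 12 of 16 alternative fits (highest adjusted p = 0.12). These included every fit that left out 1 library other than WT library 2.

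The CCN proteins share an IGF-binding-like domain. Of 6 tested members, Wisp1 reached the filter on low values through the WT libraries alone, so its direction was fixed by the filter and it is left out of the count. Of the other 5, 1 was lower and 0 were higher (median log2 -0.34). Wisp2 went from 1717, 1610 and 1567 in WT to 461, 541 and 558 in Ahr-KO (log2 -1.65 ± 0.11, adjusted p = 0.00051), and the call held in all 16 alternative fits. Wisp1 itself had only 4, 5.75 and 5.6 in WT and 0, 0.83 and 0 in Ahr-KO, a level of a few reads (adjusted p = 0.028, lost in 6 of the 11 alternative fits that tested it). Leaving out any 1 Ahr-KO library ended the Wisp1 call, and without a WT library the gene was below the filter. Cyr61, a matrix protein of early injury response, did not pass (log2 -1.21, adjusted p = 0.058).

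**Figure D4:**
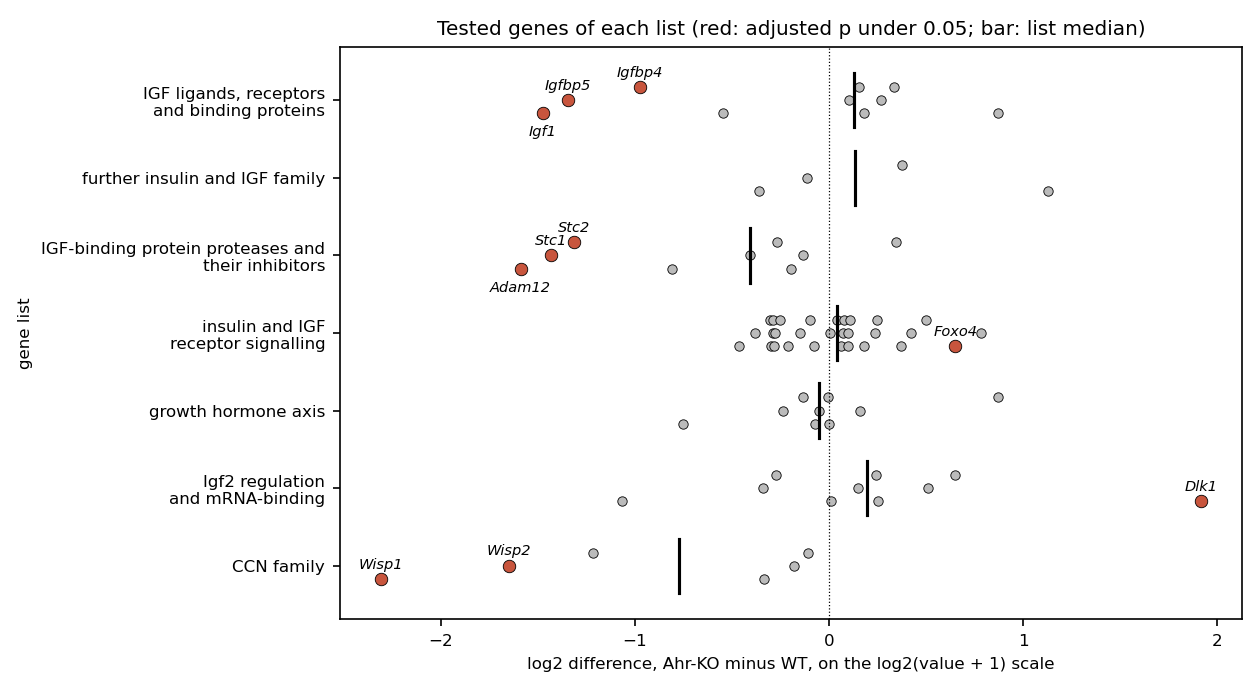
Log2 difference, Ahr-KO minus WT (horizontal axis), of every tested gene in 7 lists (vertical axis), with red points and names for adjusted p under 0.05, grey points for the rest and a black bar for the list median. The CCN bar includes Wisp1 and lies at -0.77, beside a median of -0.34 without it. The red points of the binding protein protease and CCN lists lie below 0, with Wisp1 having passed the filter on low values through the WT libraries alone, while 28 of 29 receptor signalling genes are grey and lie on both sides of 0.

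Cell-type markers also differed between the genotypes. Each count of called markers below is to be read beside the 10.8% called over all tested genes, 4.5% as higher and 6.26% as lower. Of 9 tested macrophage markers 4 were lower (C1qa, C1qb, C1qc and Itgax) and 0 higher. The summed value of the macrophage list was 16796, 16753 and 19938 in WT and 16608, 10108 and 11074 in Ahr-KO, with Marco at 0 in all 6 libraries. The largest terms of that sum were Mrc1 and Csf1r, neither of them called. The called marker C1qa was at 0.36, 0.24 and 0.22 of its WT mean in the Ahr-KO libraries. WT library 2 was the highest and Ahr-KO libraries 1 and 2 the lowest both in the macrophage sum and in Igf1. This was not particular to macrophages, since the T and NK cell sum shared it. That sum was 3755, 3264 and 3880 in WT and 1864, 1340 and 1426 in Ahr-KO. Relative to the WT mean, the Ahr-KO libraries were at 0.93, 0.57 and 0.62 for the macrophage sum and at 0.61, 0.23 and 0.30 for Igf1. For the T and NK cell sum they were at 0.51, 0.37 and 0.39. Mrc1, a macrophage mannose receptor, overlapped between the genotypes (3351, 4362 and 6116 against 6383, 2033 and 2417). Csf1r, the macrophage growth factor receptor, was not lower in any Ahr-KO library (4989 ± 70.4 against 5728 ± 316, SD, n = 3, adjusted p = 0.16). The part of macrophages in the fall of Igf1 was not tested.

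Fibroblast markers had 3 of 10 tested genes lower (Col1a1, Col3a1 and Pi16) and 0 higher. Their summed value was 51259 to 64756 in WT and 31905 to 40527 in Ahr-KO, with no marker at 0 in either group. Relative to the WT mean, the fibroblast sum was 0.70, 0.55 and 0.61 in the Ahr-KO libraries, Igfbp4 was 0.46, 0.57 and 0.49 and Igfbp5 was 0.38, 0.31 and 0.52. The sum is dominated by collagen genes. Pdgfra, the receptor that marks lung fibroblasts, was at 5164, 2990.2 and 3178 in WT and at 5465, 3465 and 3438 in Ahr-KO (adjusted p = 0.76), and the fibroblast factor Tcf21 did not pass either (adjusted p = 0.41). The part of fibroblasts in the falls of Igfbp4 and Igfbp5 was not tested.

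Alveolar type 1 markers were higher for 5 of 8 tested genes, with a summed value of 128893 to 155398 in WT and 216611 to 239798 in Ahr-KO. Of 10 pan-endothelial markers 2 were higher (Pecam1 and Tek) and 1 lower (Emcn), with sums of 79407 to 89551 in WT and 100361 to 111914 in Ahr-KO. Igf1r, at 1.62 to 1.85 times its WT mean in the Ahr-KO libraries, and Igfbp7, at 1.17 to 1.26 times, shifted in the same direction as those sums without passing the test. Alveolar type 2 sums (1.31, 1.17 and 1.38 times the WT mean) and mesothelial sums (1.44, 1.54 and 1.69 times) also rose in Ahr-KO. The largest mesothelial term was Krt19, the 1 of 6 tested mesothelial markers called higher, with 0 lower and a list median log2 of -0.34. All 8 T and NK cell markers and 4 of 6 B cell markers were lower. Lymphatic endothelial markers had 3 of 6 lower (Prox1, Flt4 and Ccl21) and 0 higher (median log2 -0.93). Their sums were 21373 to 26710 in WT and 22123 to 27003 in Ahr-KO. The largest term of those sums was Pdpn, which is also in the alveolar type 1 list. Its mean was 10483 in WT and 14082 in Ahr-KO, while that of Ccl21 was 6513 and 1966. Airway markers had 2 of 6 lower (Scgb3a1 and Foxj1) and 1 higher (Tppp3). Alveolar type 2 markers had 1 of 8 higher (Etv5) and 0 lower, near the 10.8% called over all genes. However, 6 of the 8 had every Ahr-KO value above every WT value (median log2 0.39), while 34.3% of all tested genes did not overlap in either direction. Their sums were 518248 to 590953 in WT and 647511 to 760184 in Ahr-KO. The smooth muscle and pericyte list had 1 of 9 lower (Rgs5) and 0 higher, beside 10.8% called over all genes. Its members Myh11, Tagln and Cspg4 were not called but had every Ahr-KO value above every WT value (log2 0.66, 0.54 and 0.40), and its sums were 29579 to 37839 in WT and 36303 to 54554 in Ahr-KO. The red blood cell and striated muscle lists had 0 called, but their sums varied between libraries. Red blood cell sums were 4829, 16106 and 14184.5 in WT and 5846, 2734 and 6845 in Ahr-KO. Striated muscle sums were 873, 1676 and 5450 in WT and 2133, 2028 and 1741 in Ahr-KO, with WT library 2 the highest. The part of these cell types in the values of the IGF genes was not tested.

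**Figure D5:**
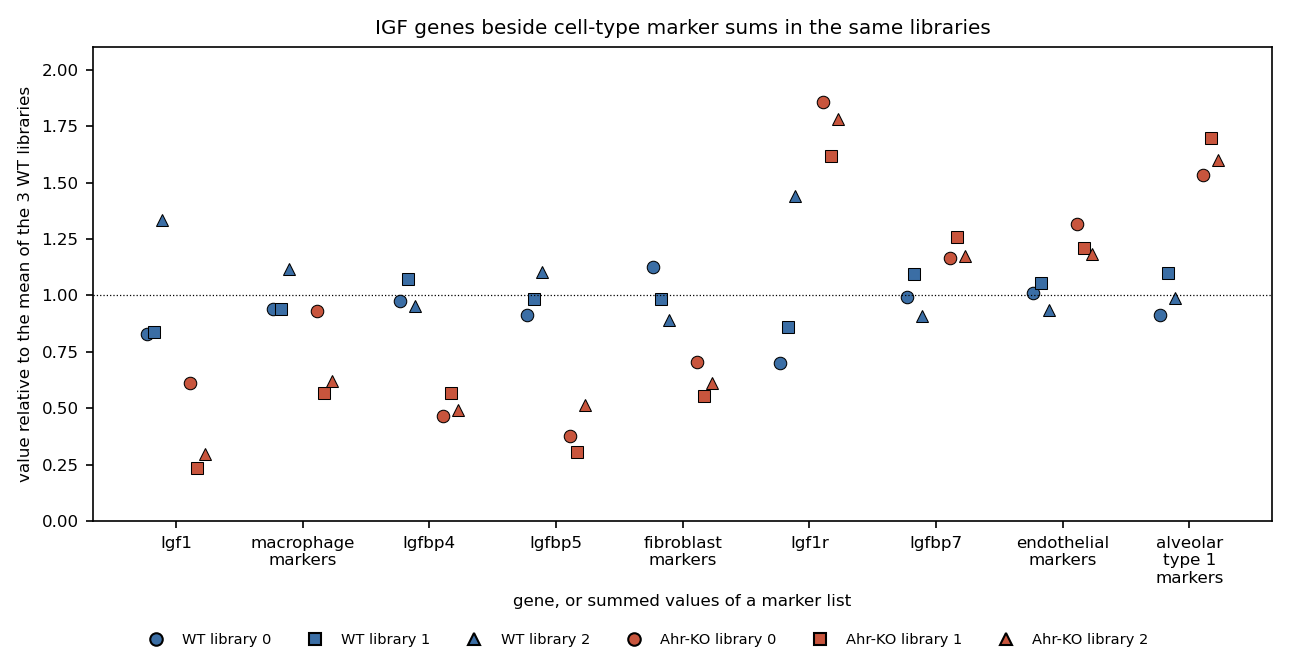
Value relative to the mean of the 3 WT libraries (vertical axis, from 0) of 5 IGF genes and of the summed values of 4 marker lists in each library, blue for WT and red for Ahr-KO. Igf1 and the macrophage sum are highest in WT library 2 and lowest in Ahr-KO libraries 1 and 2, and the alveolar type 1 sum lies above 1.5 in all Ahr-KO libraries. The T and NK cell sum, which is not drawn, is likewise highest in WT library 2 and lowest in Ahr-KO libraries 1 and 2.

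The genes most alike in pattern were picked by Pearson's r of log2 values over the 6 libraries, among 12184 genes with a mean value of at least 50. High values were common for some of the 10 genes: 215 genes reached an r above 0.95 with Igf1. The 6 points hold the genotype contrast and libraries of different depth, and the part of either in r was not tested. The nearest to Igf1 were Gpr18, a G protein-coupled receptor gene (r = 0.9995), and Mtpn (r = 0.998). The nearest to Igfbp4 were Pno1 and Mrm1 (r = 0.996 and 0.990), and to Igfbp5 Stat3, a cytokine-activated transcription factor, and the adaptor Grap2 (r = 0.996 and 0.995). A high r does not measure the size of a difference. Gpr18 (log2 -0.90), Mtpn (-0.42), Mrm1 (-0.29) and Stat3 (-0.18) did not pass the test, while Pno1 (-0.50) and Grap2 (-1.55) were called lower. Igf1r was nearest to Sun1 and Frem2 (r = 0.998 and 0.998). Igfbp2 was nearest to RGD1563365 and to Adm, the vasodilator peptide adrenomedullin (r = 0.996 and 0.992). Igfbp3 had 5 genes above 0.95, fewer than any other gene of the 10, with Oxa1l nearest (r = 0.992). Igf2 was nearest to Dancr (r = 0.995), Igf2r to Ern1, a sensor of unfolded protein (r = 0.993), Igfbp6 to Nup214 (r = 0.998) and Igfbp7 to Gipc2 (r = 0.995).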

How the data were processed

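Total lung RNA was extracted with a column kit and DNase and sequenced as Illumina libraries, per the labels' protocols. The submitters' processing notes name FastQC and the genome build rn6. The aligner, counter, annotation and strandedness were not given in the sources used here. Deposited by the authors was 1 normalised signal per gene symbol and library. In each library 97.4% to 97.9% of values above 0 lay within 0.05 of a whole multiple of its most frequent value, taken as 1 read (0.81 to 1.40); the rest were fractions, so the values were not treated as counts. The table's columns number libraries 0 to 2 and the titles from 1, so columns were assigned to genotypes only; 0 columns were left unused.

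The log2 of value + 1 was taken, and genes reaching a value of 1 in 3 or more libraries entered a limma 3.58.1 fit (R 4.3.3) of genotype alone, with a mean-variance trend (limma-trend). Its 2-sided p-values were adjusted by the Benjamini-Hochberg method across the 15386 genes tested. An exact permutation test of 3 against 3 libraries cannot go below 0.1. The code was tested on simulated data. The genes and lists were chosen with earlier results of these data known. Named were the 10 IGF genes and, from each other pathway list, up to 6 genes past the threshold or else the 1 with the lowest p; further genes, and the markers, were named after their values were seen. A gene of the protease list is not reported here and was left out of its counts. The 16 alternative fits were quantile normalisation, equal totals, no trend, robust limma, no filter, a minimum of 10, limma-voom, a pseudocount of 0.1, a block for library number, each of 6 libraries left out, and both libraries numbered 2 left out. An adjusted p under 0.10 was also tried.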

Additional observations from a re-analysis of the deposited data

How the results depend on the processing

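Over the fits that left out 1 library, the number of IGF genes called ranged from 2 to 4, and the number over all tested genes from 407 to 1834, beside 1655. Leaving out Ahr-KO library 2 gave the 407, and leaving out Ahr-KO library 1 gave 529. Leaving out WT library 0 gave 705, and leaving out WT library 1 gave 871. The number over all genes was 2853 at an adjusted p under 0.10, 952 without the trend, 899 with the library number as a replicate block, and 553 without both libraries numbered 2, a fit chosen after seeing the data. The block kept the calls of Igfbp4 and Igfbp5 and ended that of Igf1 (adjusted p = 0.057). Deviations of same-numbered libraries from their group means had r from -0.10 to 0.07 over 3 pairs. Low r over all genes cannot exclude a pairing or a shared batch, so whether the numbers pair the samples remained unknown. Limma-voom, run on each value over its library's step and also chosen after seeing the data, called 436 genes higher and 1290 lower, and the same number of IGF genes, 3. Igf2 and Igfbp3 changed sign in some fits, each far from the threshold. Igf2 stood at -0.032 in limma-voom, at -0.14 to 0.27 over the fits that left out 1 library and at -0.11 without both libraries numbered 2. Igfbp3 stood at -0.072 to 0.48 and at -0.055 in the same fits. The causes were not tested. The planned count-based fits were not run, since whole reads were not recovered for all values. With 3 libraries a group, the 95% intervals of Igf2 and Igfbp3 include changes of over 0.5 on the log2 scale.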
